A study of Danio rerio with 45 samples.

Results

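fgf24 (ENSDARG00000037677) encodes a secreted fibroblast growth factor and is 1 of the 31465 genes in a table of RNA-seq counts from zebrafish explants, of which 21075 were counted deeply enough to be tested. It was chosen by its adjusted p in 1 comparison, as the 1 gene that 2 pg of ndr2 mRNA changed at 5 hours post fertilization (hpf), so its levels in the 2 pg and control explants of that age are given as a description, with no test. The study sampled explants of the animal side of AB strain blastulas at 4, 5 and 6 hpf, counted by the stage of matching embryos. The groups at each age were uninjected controls, explants with 2, 6 or 10 pg of ndr2 mRNA given to 1 cell at the 128-cell stage, and explants with 10 pg of that mRNA kept in cycloheximide (CHX, an inhibitor of translation, at 50 µg/µl) between 20 min after the injection and harvest. This makes 15 groups, each of 3 columns in the count table. Explants given CHX but no ndr2 were not analysed here, so effects of CHX are read on top of the injection. Because the mRNA entered 1 of many cells, an explant mixes cells with and without it, and in such bulk samples more cells expressing a gene and more RNA of that gene per cell cannot be told apart. No label says that libraries came from separate clutches, so the p-values reflect the spread among these libraries alone, and that spread may be technical.

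Fgf24 belongs to the Fgf8/17/18 group of fibroblast growth factors, which bind receptor tyrosine kinases and act through the MAP kinase cascade. In zebrafish it acts together with Fgf8 in forming posterior mesoderm, and later in the pectoral fin bud, where it lies downstream of Tbx5 and upstream of Fgf10. ndr2 encodes a Nodal ligand of the TGF-beta family. Nodal signals arise at the margin of the zebrafish blastula, induce mesoderm and endoderm there, and turn on further secreted signals, Fgf ligands among them; the animal pole is far from this source.

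The libraries held between 12137856 and 28551066 counts (median 20959131). At 4 hpf the third column labelled 10 pg was identical, over all 31465 genes, to the third column labelled 10 pg with CHX. Both were left out, so these 2 groups have n = 2 and all others n = 3. Levels are CPM, counts per 1000000 counts of the library, after scaling by the trimmed mean of M values (TMM). All 9 blastoderm markers were detected in each group. The summed level of 13 enveloping layer markers (the outer epithelium of the embryo) was 141 to 1070 CPM in all libraries with CHX, against 4940 to 36800 CPM in all libraries without CHX at 5 and 6 hpf. The 4 hpf libraries differed in how far they had moved towards the 5 hpf state. On a scale where the mean 4 hpf control is 0 and the mean 5 hpf control is 1, made from 11407 genes that change between those controls, the 4 hpf libraries with 10 pg and CHX stood at -0.0365 to -0.0211. Those without CHX stood at -0.0911 to 0.115 in the controls, 0.303 to 0.552 with 2 pg, 0.155 to 0.373 with 6 pg and 0.112 to 0.117 with 10 pg. With CHX the position was still 0.341 to 0.47 at 6 hpf.

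In uninjected explants fgf24 was nearly silent at 4 hpf and increased without an injection. The 4 hpf controls held 2, 5 and 0 counts of it, or 0.0635, 0.165 and 0 CPM, where the 0 allows a level of up to 0.126 CPM (3 counts in that library). The 5 hpf controls had 0.183, 0.433 and 0.300 CPM, and the 6 hpf controls 4.33, 3.01 and 3.35 CPM. In CPM the 3 ages did not overlap. The 5 hpf controls held only 4, 8 and 8 counts, so in raw counts they overlapped the 4 hpf controls. The level at 6 hpf was higher than at 4 hpf by 5.37 ± 0.77 log2 units (edgeR quasi-likelihood, here and below with the standard error; adjusted p = 3.01e-07, where p is adjusted by Benjamini and Hochberg over all genes tested), in a comparison that called 63.3% of all genes in either direction. Rose and fell are used below where adjusted p was under 0.05.

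**Figure D1:**
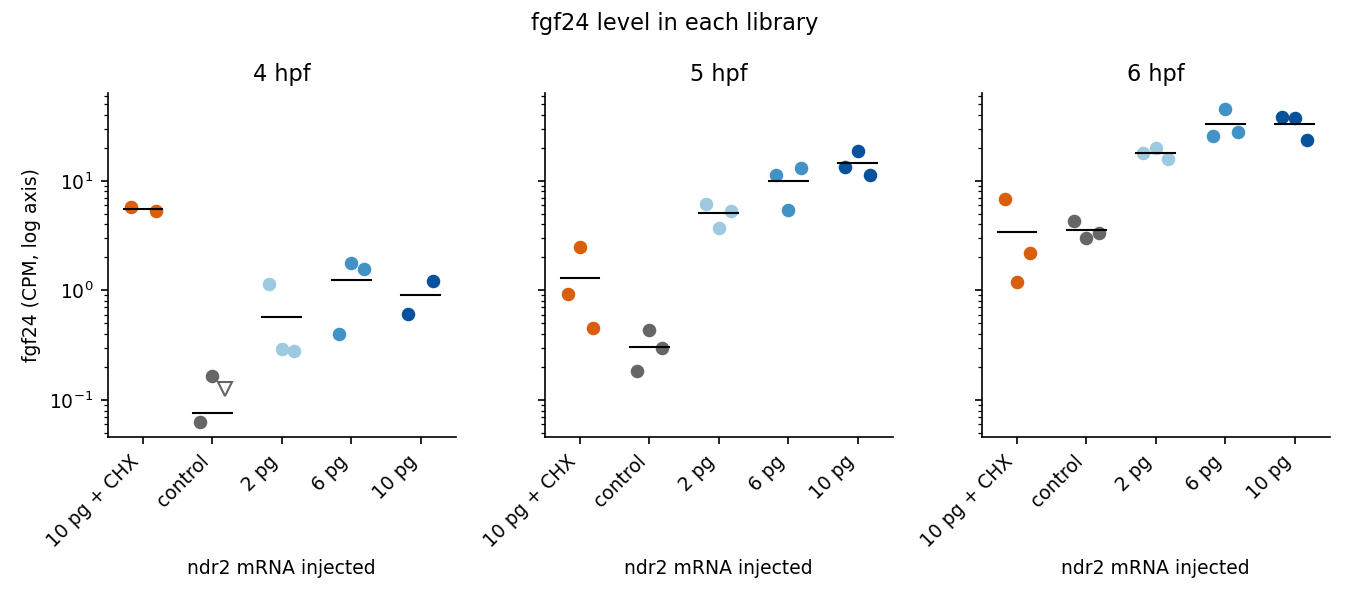
Level of fgf24 in each library (points, CPM on a log axis) by condition, 1 panel per age, with the group mean as a black line; the open triangle marks the control library with 0 counts at its limit of 3 counts. The 10 pg group reached a mean of 33.0 CPM at 6 hpf, while the group with CHX was highest of the 4 hpf groups and among the lowest later.

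Ordered by mean level, the 15 groups began with 10 pg at 6 hpf, at 33.0 ± 8.06 CPM (SD, n = 3), then 6 pg at 6 hpf with 32.9 ± 10.6 CPM, 2 pg at 6 hpf with 17.9 ± 2.08 CPM and 10 pg at 5 hpf with 14.4 ± 3.87 CPM. They ended with the 4 hpf controls at 0.076 ± 0.083 CPM. Neighbours in this order mostly shared part of their range. The exceptions were 6 pg over 2 pg at 6 hpf, and the 5 hpf over the 4 hpf controls, which were the lowest groups. Those controls overlapped in raw counts, as given above. The mean with 10 pg and CHX at 6 hpf, 3.42 ± 3.04 CPM, stood next to the control mean of that age, 3.57 ± 0.686 CPM.

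At 4 hpf fgf24 was above the controls in each group that carried ndr2, at low levels except with CHX. It had at most 0.165 CPM in a control, 1.15, 0.295 and 0.280 CPM with 2 pg, 0.399, 1.78 and 1.58 CPM with 6 pg, and 0.615 and 1.21 CPM with 10 pg. No library with ndr2 overlapped the controls, and the doses overlapped each other. fgf24 rose with 2 pg by 2.75 ± 0.82 log2 units (edgeR adjusted p = 0.0113) and with 6 pg by 3.87 ± 0.78 log2 units (edgeR adjusted p = 0.000957). With 10 pg the difference was 3.41 ± 0.86 log2 units and did not pass the test (edgeR adjusted p = 0.116). The number of genes called differed widely between these comparisons, with 15%, 8.44% and 0.138% of all genes higher at 2, 6 and 10 pg. The groups also differed in the position between 4 and 5 hpf given above, an interval over which the control level of fgf24 increased, and the summed enveloping layer markers were 186 to 382 CPM in controls, 896 to 1980 CPM with 2 pg, 368 to 915 CPM with 6 pg and 612 to 735 CPM with 10 pg. The part of these markers in the difference was not tested. With that position as a covariate, an alternative chosen after the data were seen, the 2 pg difference was 0.06 log2 units (edgeR adjusted p = 0.95) and the 6 pg difference 1.94 log2 units (edgeR adjusted p = 0.075). Without the first 2 pg library, the highest of its group, the 2 pg difference was 1.78 log2 units (edgeR adjusted p = 0.183). The 10 pg difference was 3.81 log2 units without the first 10 pg library and 2.85 without the second, each time with 1 library left in that group.

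The highest level of fgf24 at 4 hpf was that with 10 pg and CHX. Its libraries had 5.72 and 5.27 CPM, against 0.0635, 0.165 and 0 CPM in the controls, so that the lowest of them lay above every other library used at this age. The rise over the controls was 6.00 ± 0.80 log2 units (edgeR adjusted p = 3.14e-05; 5th of all genes by p), where 0.157% of genes were called higher. Both CHX libraries stood slightly below 0 on the scale between the 4 and 5 hpf controls. Leaving out any 1 library gave 5.53 to 7.05 log2 units, past the threshold each time.

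At 5 hpf, where fgf24 was chosen, its level followed the dose in the group means, as a description. The libraries had 0.183, 0.433 and 0.300 CPM in the controls, 6.13, 3.69 and 5.33 CPM with 2 pg, 11.3, 5.47 and 13.1 CPM with 6 pg, and 13.5, 18.7 and 11.2 CPM with 10 pg. No injected library overlapped the controls. The 2 and 6 pg libraries overlapped, and those with 10 pg lay above all with 2 pg. Relative to the controls the estimates were 4.04 ± 0.67 log2 units with 2 pg, 5.02 ± 0.69 with 6 pg and 5.56 ± 0.69 with 10 pg. They share the control libraries. The value that chose fgf24 was the first of these, whose adjusted p was 0.0178, the 1 call among 21075 genes (0.00474%). The 3 genes next in that list did not pass: si:ch211-236p5.3 at 7.93 ± 1.64 log2 units (4.99 against 0.0125 CPM, adjusted p = 0.308), RASGEF1B (ENSDARG00000033614) at 1.33 ± 0.28 log2 units (34.6 against 13.8 CPM, adjusted p = 0.308) and FOXD3, a forkhead factor known for its part in neural crest and dorsal mesoderm, at 2.54 ± 0.56 log2 units (23.4 against 3.99 CPM, adjusted p = 0.413), each with the 2 pg mean first. The only test the choice left free at this age among the doses set 10 pg against 6 pg, a difference of 0.54 ± 0.53 log2 units (95% interval -0.55 to 1.62, edgeR adjusted p = 0.908; 0% of genes were called).

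At 6 hpf fgf24 was higher with each dose, in libraries outside the comparison that chose it. The spread was estimated over all groups in 1 fit, so these tests are not fully separate from the choice. It had 4.33, 3.01 and 3.35 CPM in the controls, 17.8, 20.1 and 15.9 CPM with 2 pg, 25.8, 45.1 and 27.9 CPM with 6 pg, and 38.2, 37.1 and 23.7 CPM with 10 pg. The lowest injected library stood well above the highest control. fgf24 rose by 2.33 ± 0.57 log2 units with 2 pg (edgeR adjusted p = 0.0312), 3.21 ± 0.58 with 6 pg (edgeR adjusted p = 0.00146) and 3.21 ± 0.58 with 10 pg (edgeR adjusted p = 0.00141). These comparisons share the controls; they called 0.384%, 0.508% and 0.474% of all genes higher. The 2 pg call was lost when any 1 of 5 of its 6 libraries was left out, at 2.22 to 2.49 log2 units over all 6 (edgeR adjusted p of 0.044 to 0.137).

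No step between doses passed the test at 6 hpf. All libraries with 6 or 10 pg lay above all those with 2 pg. Neither 6 pg against 2 pg, at 0.88 ± 0.53 log2 units (95% interval -0.21 to 1.97, edgeR adjusted p = 1), nor 10 pg against 2 pg, at 0.88 ± 0.53 (95% interval -0.20 to 1.97, edgeR adjusted p = 0.761), passed. In these 2 comparisons 0% and 0.0237% of genes were called. Between 10 and 6 pg the difference was 0.00 ± 0.53 log2 units, with a 95% interval of -1.07 to 1.07, so a change of up to about 1 log2 unit either way is within the error, and 0% of genes were called. The effect of 10 pg at 6 hpf differed from that at 4 hpf by -0.20 ± 0.76 log2 units (95% interval -1.74 to 1.34, edgeR adjusted p = 0.993; 0.0474% of genes called). At 4 hpf, in comparisons added after the data were seen, the steps were 1.12 log2 units for 6 against 2 pg, -0.46 for 10 against 6 pg and 0.66 for 10 against 2 pg, with edgeR adjusted p of 0.543, 0.713 and 0.547, and 0.019%, 15.4% and 22.5% of all genes called.

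fgf24 was the 1 gene called with the lowest dose at 5 hpf, but it did not stand alone at 6 hpf. Of the 100 genes higher with 10 pg than in controls at 6 hpf, 48 were also called higher with 2 pg. Among all genes, 0.384% were called higher with 2 pg. Both comparisons use the same controls, and the 100 include ndr2, whose mRNA was injected. The level with 2 pg was 54.3% of that with 10 pg for fgf24, which ranked 21st of the 100 by this share, where the median was 31.8% and the range 7.80% to 115%. At 5 hpf the share was 35.0%, rank 42 of the same genes, with a median of 28.4%. It uses the 2 pg level of that age, which chose fgf24. By the size of its change with 10 pg at 6 hpf fgf24 ranked 69th of the 100. The share takes no account of the control level. At 6 hpf that level was 3.57 CPM for fgf24, the 23rd highest of the 100, against a median of 0.799 CPM. The 100 genes were picked by their level with 10 pg at 6 hpf, which is the divisor of the 6 hpf share. The shares are thus a description, in which fgf24 was not first at either age.

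**Figure D2:**
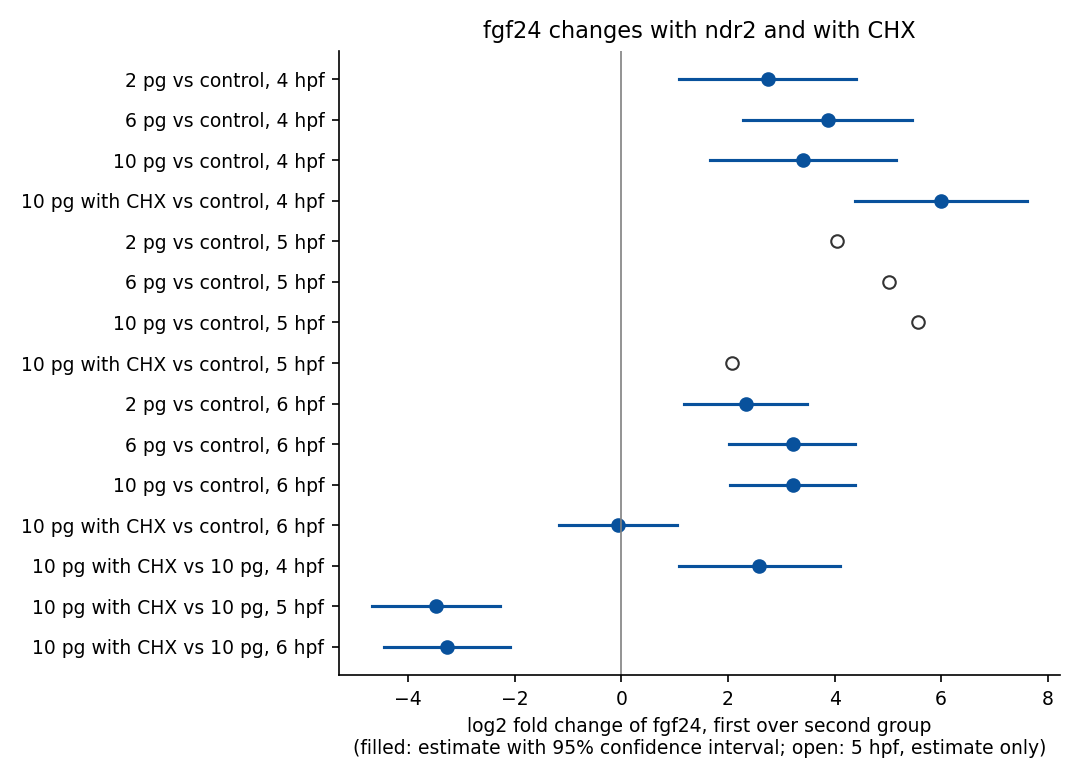
Log2 fold change of fgf24, first group over second, with 95% confidence intervals (filled points) or as an estimate only at 5 hpf against control (open points). With CHX the difference from 10 pg is above 0 at 4 hpf and below -2 at 5 and 6 hpf, and the difference from control at 6 hpf is -0.06 with an interval that spans 0.

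The difference in fgf24 between 10 pg with CHX and 10 pg alone ran in opposite directions early and late. At 4 hpf the libraries with 10 pg and CHX had 5.72 and 5.27 CPM, against 0.615 and 1.21 CPM with 10 pg alone. At 5 hpf they had 0.931, 2.49 and 0.453 CPM, against 13.5, 18.7 and 11.2 CPM with 10 pg alone, and at 6 hpf 6.89, 1.19 and 2.18 CPM, against 38.2, 37.1 and 23.7 CPM. The groups did not overlap at any age, with CHX above at 4 hpf and below afterwards. The difference at 4 hpf, 2.59 ± 0.74 log2 units, missed the threshold (edgeR adjusted p = 0.113), while DESeq2 put the same difference past it (adjusted p = 0.0194). It also depended on the equal column that was left out. Counted in the 10 pg group only, that column gave 1.41 log2 units (edgeR adjusted p = 0.947). Counted in the CHX group only, it gave 2.47 (edgeR adjusted p = 0.0467). With CHX fgf24 fell by 3.48 log2 units at 5 hpf (SE 0.60, edgeR adjusted p = 1.21e-05) and fell by 3.27 log2 units at 6 hpf (SE 0.58, edgeR adjusted p = 1.47e-05). CHX changed much of the transcriptome at these ages, with 25% of all genes higher and 24.2% lower at 5 hpf, 29% higher and 27.2% lower at 6 hpf, against 0.555% in either direction at 4 hpf. Of 13 enveloping layer markers, 13 were lower with CHX than with 10 pg alone at 5 hpf and 12 at 6 hpf. At 4 hpf 5 of the 13 were lower with CHX. The 13 summed to 141 to 155 CPM at 4 hpf with CHX, against 612 to 735 CPM with 10 pg alone. At 6 hpf grhl3, 1 of these markers, averaged 543 CPM with CHX and 587 CPM without. On the scale between the 4 and 5 hpf controls, libraries with CHX stood at 0.0966 to 0.441 at 5 hpf. At 6 hpf they stood at 0.341 to 0.47. The part of the markers or of this position in the fgf24 difference was not tested.

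Tested against each other, in comparisons added after the data were seen, the CHX effect at 5 hpf minus that at 4 hpf was -6.07 ± 0.96 log2 units (edgeR adjusted p = 0.000177, with 13.5% of genes called), and that at 6 hpf minus that at 4 hpf was -5.85 ± 0.95 log2 units (edgeR adjusted p = 3.36e-05, with 27% of genes called). Between 6 and 5 hpf the CHX effects differed by 0.21 ± 0.76 log2 units (95% interval -1.33 to 1.76, edgeR adjusted p = 0.925; 2.44% of genes called). Against the controls the explants with CHX had the large excess at 4 hpf given above. The 5 hpf values of 0.931, 2.49 and 0.453 CPM lay above all 3 controls by 2.08 ± 0.67 log2 units as a description. At 6 hpf the groups overlapped, with a difference of -0.06 ± 0.55 log2 units (95% interval -1.17 to 1.05, edgeR adjusted p = 0.937). The libraries with CHX were widely spread at this age, between 1.19 and 6.89 CPM, and without the highest of them it was -1.07 log2 units, without the lowest 0.35.

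fgf24 was higher at 6 hpf than at 4 hpf with each dose. It rose between 4 and 6 hpf by 4.95 ± 0.66 log2 units with 2 pg (edgeR adjusted p = 9.59e-08) and, in comparisons added later, by 4.71 ± 0.63 with 6 pg (edgeR adjusted p = 1.03e-07) and 5.17 ± 0.78 with 10 pg (edgeR adjusted p = 1.24e-06); these called 58.8%, 59.6% and 57.1% of all genes. In the estimates for 6 and 10 pg the larger step came before 5 hpf. With 10 pg it was 3.98 ± 0.74 log2 units between 4 and 5 hpf (edgeR adjusted p = 5.91e-05), and 1.19 ± 0.54 between 5 and 6 hpf, which did not pass (edgeR adjusted p = 0.119); 44.5% and 18.4% of genes were called. With 6 pg both steps passed, at 2.98 ± 0.59 (edgeR adjusted p = 9.82e-05) and 1.72 ± 0.55 log2 units (edgeR adjusted p = 0.0303), the second losing its call without any 1 of 4 of its 6 libraries (edgeR adjusted p of up to 0.175) and, with the replicate number as a block within age, at 2.08 ± 0.70 (edgeR adjusted p = 0.0583); 46.4% and 14.6% of genes were called. The control and 2 pg steps through 5 hpf are descriptions: 1.83 ± 0.88 and then 3.54 ± 0.67 log2 units in controls, 3.13 ± 0.63 and then 1.83 ± 0.56 with 2 pg.

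Under CHX the lowest group mean was that at 5 hpf. fgf24 fell between 4 and 5 hpf, by 2.09 log2 units (SE 0.62, edgeR adjusted p = 0.0166, with 17.3% of genes called), a call that was lost without any 1 of 4 of the 5 libraries (edgeR adjusted p of up to 0.12). The step after that, 1.40 ± 0.57 log2 units between 5 and 6 hpf, did not pass (edgeR adjusted p = 0.259; 0.0664% of genes called) and was 2.30 log2 units without the second CHX library of 5 hpf, the highest of its group (edgeR adjusted p = 0.0157). Over the whole interval the difference was -0.68 ± 0.60 log2 units (95% interval -1.91 to 0.54, edgeR adjusted p = 0.42; 27.9% of genes called).

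The injected mRNA itself was read in the libraries, and between 4 and 5 hpf its course was unlike that of fgf24. At 4 hpf ndr2 had 301 and 82.7 CPM with 10 pg and CHX, and without CHX 0.317 to 0.670 CPM in the controls, 6.81 to 7.05 CPM with 2 pg, 32.0 to 48.3 CPM with 6 pg, and 142 and 114 CPM with 10 pg. By 5 hpf it was 1.68 to 3.37 CPM with 2 pg, 3.95 to 17.2 CPM with 6 pg and 11.6 to 20.2 CPM with 10 pg. So the ligand's RNA was lower at 5 than at 4 hpf in each injected group without CHX, with ranges that did not overlap, while fgf24 was higher at 5 hpf in all of them. By 6 hpf ndr2 was 4.79 to 9.15 CPM with 2 pg, 14.3 to 30.7 CPM with 6 pg and 17.9 to 28.5 CPM with 10 pg. Over this later step its group means were higher at 6 than at 5 hpf at each dose, as those of fgf24 were, with ranges that overlapped with 6 and 10 pg and did not with 2 pg. The counts do not separate injected ndr2 from the embryo's own.

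The spread of fgf24 within a group followed ndr2 in some groups and not in others. With 6 pg at 5 hpf the second library was lowest in both, with 5.47 CPM of fgf24 and 3.95 CPM of ndr2. With 6 pg at 4 hpf the first library had the most ndr2, 48.3 CPM, and the least fgf24, 0.399 CPM. Groups hold at most 3 libraries, and these orders were not tested. The 4 hpf libraries with CHX had nearly the same fgf24, 5.72 and 5.27 CPM, although ndr2 was 301 CPM in the first and 82.7 CPM in the second. At 5 hpf ndr2 was 98.8, 21.6 and 58.0 CPM with CHX, all above the 20.2, 16.2 and 11.6 CPM of 10 pg alone, while fgf24 was lower with CHX. At 6 hpf ndr2 with CHX was 20.8, 27.3 and 15.8 CPM, which overlapped the 18.2, 28.5 and 17.9 CPM of 10 pg alone. At that age fgf24 was 6.89, 1.19 and 2.18 CPM with CHX and 38.2, 37.1 and 23.7 CPM without.

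**Figure D3:**
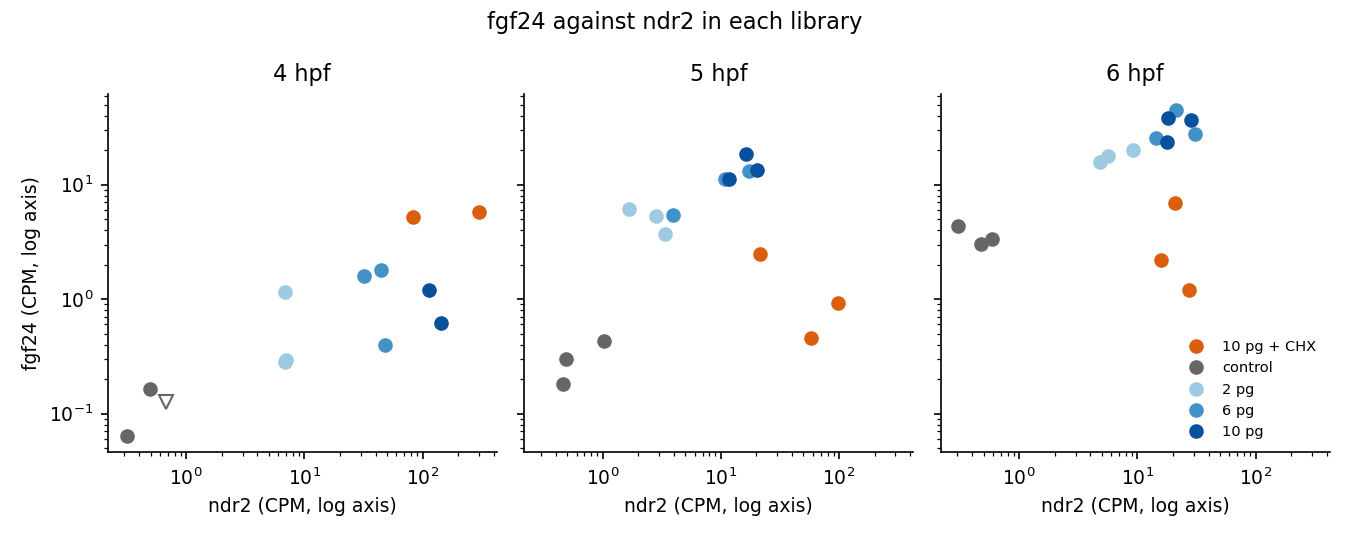
fgf24 against ndr2 in each library, both in CPM on log axes, 1 panel per age, coloured by condition; the open triangle is the control with 0 fgf24 counts at its limit. In fgf24 the CHX libraries lie below all 10 pg libraries at 5 and 6 hpf and above them at 4 hpf. Their ndr2 levels span the 10 pg range at 4 hpf, are above it at 5 hpf and overlap it at 6 hpf.

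The genes whose group means ran most like those of fgf24 were found by Pearson's r over the 15 group means of log2 CPM, among 13277 genes with at least 5 CPM in some group. This is a description over 15 groups that share ages, doses and libraries' depth, with no test. The 8 highest were wnt11f2 (r = 0.917), SPRY2 (0.913), P4HA2 (0.900), her1 (0.900), DUSP6 (0.883), pcdh8 (ENSDARG00000006467, 0.882), zgc:153018 (0.876) and CYP27C1 (0.872). wnt11f2 is a Wnt ligand of cell movements in gastrulation, SPRY2 a Sprouty feedback inhibitor of Fgf signalling, DUSP6 a MAP kinase phosphatase, P4HA2 a subunit of a collagen prolyl hydroxylase, her1 a Hairy-related repressor of the segmentation clock in zebrafish, pcdh8 a protocadherin of cell adhesion and CYP27C1 an enzyme of retinoid metabolism.

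Their levels show how close the likeness is. With 2, 6 and 10 pg at 6 hpf wnt11f2 averaged 119, 283 and 282 CPM, SPRY2 30.6, 53.6 and 55.5 CPM, and P4HA2 21.1, 35.0 and 33.6 CPM, each level between 6 and 10 pg, as fgf24 was. The likeness is looser in the controls. P4HA2 averaged 0.703 CPM in the 6 hpf controls and 0.996 CPM in the 5 hpf controls, without the late increase of fgf24, and 6.91 CPM with CHX at 6 hpf. At 4 hpf with CHX wnt11f2 averaged 87.9 CPM, against 66.1 CPM with 10 pg alone, and SPRY2 7.17 CPM, against 7.36 CPM. The 8 genes ranged there from her1, at 3.51 against 0.991 CPM (1.83 ± 1.46 log2 units), to zgc:153018 at -1.49 ± 0.67 log2 units. Neither passed (edgeR adjusted p = 0.771 and 0.407). Of the 8 genes, P4HA2, pcdh8 and CYP27C1 rose with 2 pg at 6 hpf, with edgeR adjusted p of 9.57e-05, 0.000241 and 0.00805. In wnt11f2 (1.30 ± 0.56 log2 units, edgeR adjusted p = 0.281) and SPRY2 (1.20 ± 0.48, edgeR adjusted p = 0.233) the difference did not pass, nor did it in her1, DUSP6 and zgc:153018 (edgeR adjusted p = 0.486, 0.377 and 0.117). In this comparison 0.384% of all genes were called higher. The 8 genes were picked over group means that include these groups, so their calls are a description and lend the likeness no separate support.

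**Figure D4:**
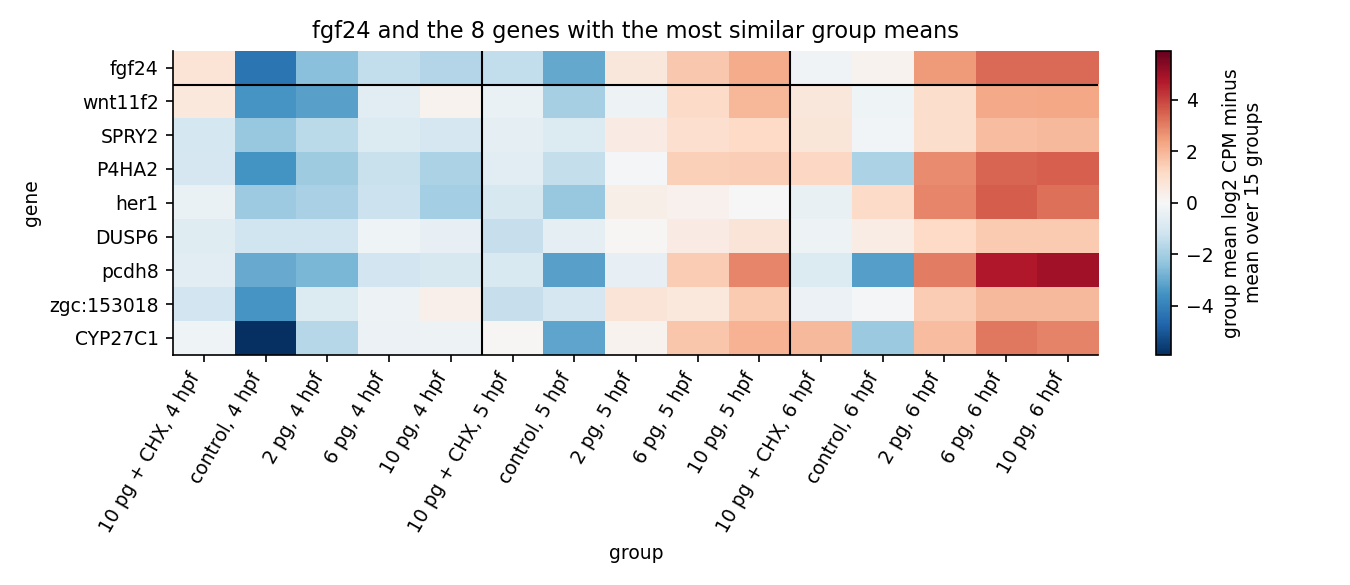
Group means of log2 CPM, centred on each gene's mean over 15 groups, for fgf24 (top row) and the 8 genes with the most similar group means; columns are groups, 5 per age. Each row is highest with 6 and 10 pg at 6 hpf, and the rows differ most in the control columns of 4 and 6 hpf.

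The Fgf pathway around fgf24 was described with lists of Fgf-named genes (called ligands below), receptors with their partners, and target genes, without fgf24 itself. The first list includes FGF11 to FGF14, relatives that stay inside the cell and are not secreted. Its counts and medians are therefore not those of secreted ligands alone. Among the ligands 3 of 20 tested genes rose with 10 pg at 4 hpf, where 0.138% of all genes did, 3 at 5 hpf (0.223% of all genes) and 4 at 6 hpf (0.474%). None fell. They were FGF3, FGF4 and FGF8 (ENSDARG00000003399) at all 3 ages, and fgf17 at 6 hpf, which are ligands of the early embryo, FGF8 and fgf17 of the same subfamily as fgf24. The median difference of the 20 was 0.19, 0.21 and 0.00 log2 units at the 3 ages, against -0.07, -0.04 and 0.00 over all genes. The genes of this list with the most counts outside these were of the kind that is not secreted. They were FGF12, at -0.43 log2 units with 10 pg at 6 hpf, FGF14, at -0.79, and FGF13 (ENSDARG00000035056), at 0.01, none past the test.

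In the estimates at 6 hpf, FGF3, FGF4 and FGF8 differed more from control than fgf24 did, with 2 and with 10 pg, and fgf17 did so with 10 pg alone. At 6 hpf FGF8 averaged 0.533 CPM in controls, 14.2 CPM with 2 pg and 36.5 CPM with 10 pg, a rise of 4.74 ± 0.76 log2 units with 2 pg and 6.10 ± 0.80 with 10 pg (edgeR adjusted p = 0.000916 and 1.17e-05). FGF3 averaged 0.152 CPM in controls, 4.96 CPM with 2 pg and 19.4 CPM with 10 pg, and rose by 4.98 ± 0.92 and 6.95 ± 0.95 log2 units at these doses (edgeR adjusted p = 0.00398 and 1.91e-05). FGF4 averaged 0.0668 CPM in controls, 1.22 CPM with 2 pg and 11.8 CPM with 10 pg, and its difference with 2 pg, 4.07 ± 1.22 log2 units, did not pass (edgeR adjusted p = 0.09). fgf24, with 3.57 CPM in controls, 17.9 CPM with 2 pg and 33.0 CPM with 10 pg, rose by 2.33 and 3.21 log2 units. fgf17 averaged 1.36 CPM in controls, 3.83 CPM with 2 pg and 16.4 CPM with 10 pg, a difference of 1.49 ± 0.60 log2 units with 2 pg that did not pass (edgeR adjusted p = 0.24) and a rise of 3.59 ± 0.62 with 10 pg (edgeR adjusted p = 0.000699). Differences between these genes were not tested.

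With CHX these ligands and fgf24 are set side by side without a test between genes. Against the controls at 4 hpf, FGF3, FGF4 and FGF8 rose with 10 pg and CHX by 5.95 ± 0.90, 5.53 ± 1.18 and 5.39 ± 0.84 log2 units, all past the test, as did fgf24. Their means with CHX were below those with 10 pg alone at this age, that of fgf24 above. FGF3 averaged 14.0 CPM with CHX and 20.9 CPM with 10 pg alone, FGF4 3.06 and 13.1 CPM, FGF8 9.05 and 10.7 CPM, while fgf24 averaged 5.49 and 0.911 CPM; none of the 4 differences passed. At 6 hpf FGF3, FGF4, FGF8 and fgf17 were all higher with CHX than in controls, by 4.95, 3.10, 4.82 and 4.74 log2 units (edgeR adjusted p of 2.88e-05, 0.0332, 3.24e-06 and 2.32e-07), in a comparison that called 28.4% of all genes higher. fgf24 was at -0.06 log2 units there. Such folds also depend on the control level. FGF4 averaged 0.615 CPM with CHX and 0.067 CPM in controls, fgf24 3.42 and 3.57 CPM. Of the 8 genes most like fgf24, her1, DUSP6 and zgc:153018 also had lower means with CHX than in controls. The means of wnt11f2, SPRY2, P4HA2, pcdh8 and CYP27C1 were higher with CHX.

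Of the receptors and their partners, 1 of 11 tested genes rose with 10 pg at 4 hpf and 0 at 5 and 6 hpf, where 0.138%, 0.223% and 0.474% of all genes rose. The 1 was FLRT3, a membrane protein that binds Fgf receptors, with 26.9 CPM against 0.606 CPM in controls (5.55 ± 0.85 log2 units, edgeR adjusted p = 0.000438). Some receptors that bind Fgf ligands were expressed at 6 hpf. fgfr4 averaged 650 CPM with 10 pg and 722 CPM in controls at 6 hpf, and FGFR1 (ENSDARG00000011027) 146 and 111 CPM. Neither difference passed. With CHX relative to 10 pg the list went both ways. At 5 hpf 3 of the 11 genes rose and 3 fell, where 25% and 24.2% of all genes did. At 6 hpf 2 rose and 4 fell, where 29% and 27.2% of all genes did. Among those that fell was fgfr4, by 2.99 log2 units at 5 hpf (SE 0.53, edgeR adjusted p = 2.61e-05).

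The list of target genes includes tbxta, a gene of mesoderm, which Nodal induces, and the gene of Tbx5, placed upstream of fgf24 above. Its counts therefore do not measure Fgf signalling alone. Among the target genes, 1 of 21 tested genes rose with 10 pg at 4 hpf, 2 at 5 hpf and 5 at 6 hpf, and none fell. Of all genes, 0.138%, 0.223% and 0.474% rose at these ages. tbxta, a T-box factor of mesoderm and notochord, rose at all 3 ages and at 6 hpf averaged 2.61 CPM in controls, 139 CPM with 2 pg and 411 CPM with 10 pg. SPRY1 rose at 5 and 6 hpf, and SPRY2, SPRY4 and ier2a at 6 hpf; the Sprouty genes encode feedback inhibitors of Fgf signalling. SPRY1 averaged 29.3 CPM with 10 pg, against 3.36 CPM in controls (3.12 ± 0.57 log2 units, edgeR adjusted p = 0.00166), and SPRY2 55.5 against 13.3 CPM (2.06 ± 0.49, edgeR adjusted p = 0.0405). The median over the 21 targets was 0.71 log2 units at 6 hpf, against 0.00 over all genes. tbx16, etv5b and DUSP6, the targets with the most counts that did not pass, stood at 0.56, 0.71 and 1.12 log2 units. With 2 pg at 6 hpf 3 of the 21 rose, SPRY1, ier2a and tbxta, and 2 of the 20 ligands, FGF3 and FGF8, where 0.384% of all genes did. The number called in the 3 lists with 10 pg at 6 hpf was 9, and 14 when only the libraries of that age were fitted; at 5 hpf it was 5, and 0 when only the libraries of that age were fitted, 9 by DESeq2 and 8 without the third control.

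**Figure D5:**
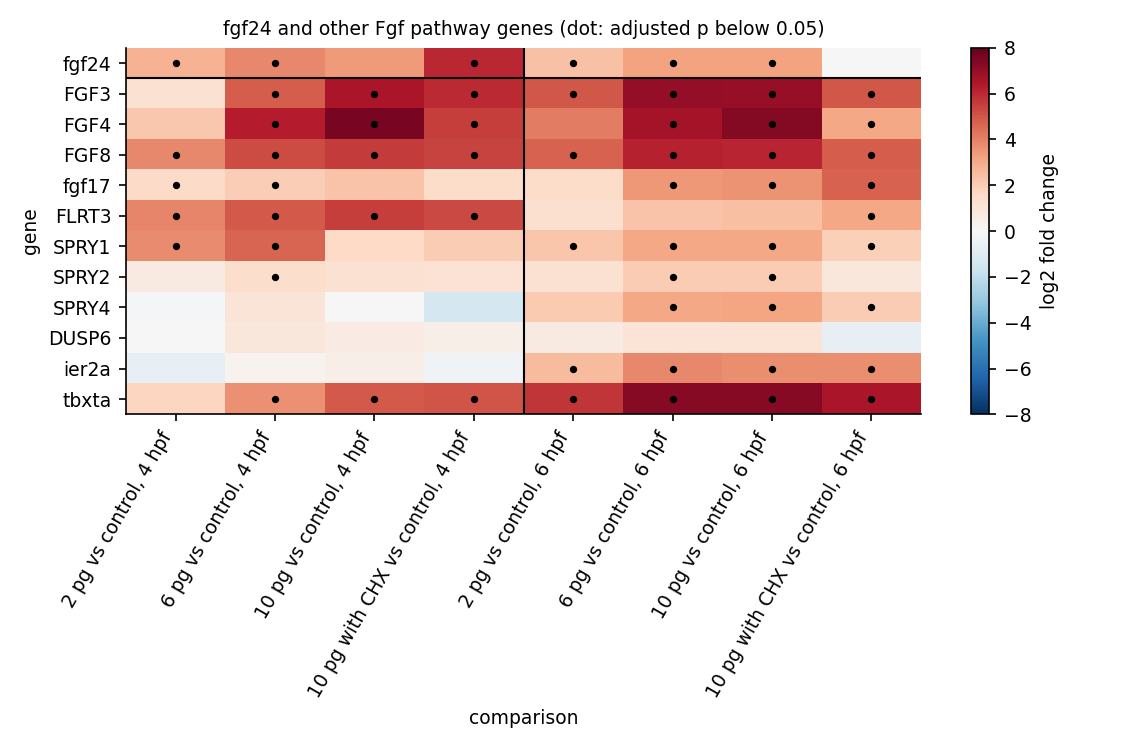
Log2 fold change against control at 4 hpf (left of the line) and 6 hpf (right) for fgf24 and 11 other genes of the Fgf lists, with a dot where adjusted p was below 0.05. In the last column, 10 pg with CHX at 6 hpf, fgf24 is at -0.06 while the ligands below it stand between 3.10 and 4.95. Of the target genes there, DUSP6 averaged 83.9 CPM against 132 CPM in controls, and SPRY2 24.8 against 13.3 CPM.

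Many targets were lower with CHX. Relative to 10 pg alone, 11 of 21 targets fell and 2 rose at 5 hpf, and 12 fell and 4 rose at 6 hpf, where 24.2% and 27.2% of all genes fell and 25% and 29% rose. The median difference was -1.22 and -1.08 log2 units, against 0.03 and 0.12 over all genes. DUSP6 averaged 49.4 CPM with CHX and 164 CPM with 10 pg alone at 5 hpf, and fell by 1.73 log2 units (SE 0.38, edgeR adjusted p = 0.000303). Of the ligands, 6 of 20 fell and 3 rose at 5 hpf, and 4 fell and 5 rose at 6 hpf. FGF3 and FGF4 fell at both ages. FGF8 fell by 2.08 log2 units at 5 hpf (SE 0.63, edgeR adjusted p = 0.00715) and stood at -1.28 ± 0.62 at 6 hpf (edgeR adjusted p = 0.0753). fgf17 passed at neither age, with 36.4 CPM with CHX and 16.4 CPM with 10 pg alone at 6 hpf (1.15 ± 0.54 log2 units, edgeR adjusted p = 0.0698).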

How the data were processed

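Whole-explant RNA was extracted with TRIzol, per the labels' protocols. The authors deposited unnormalized read counts by Ensembl gene ID; STAR, featureCounts, DESeq2 and the GRCz11 build are named in the submitters' processing notes. Their versions, the annotation and the strandedness of counting are not given in the labels or files. The sample titles give the doses and were followed; the descriptions carry other figures. fgf24, the gene lists and the comparisons were chosen with earlier results of these data known. Symbols come from a reference table, in its letter case. Sequences and coordinates are not used here.

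The test was edgeR's robust quasi-likelihood test (edgeR 4.0.16, R 4.3.3) on 43 libraries with TMM scaling and 1 mean for each group, which left 28 residual degrees of freedom. filterByExpr removed genes with low counts (minimum count 10, total 15). p-values were adjusted over 21075 genes within each comparison, with a threshold of 0.05. The script was tested on simulated data. For fgf24, 25 comparisons were tested, 8 more were added after its values were seen, and 10 that use the 5 hpf control or 2 pg libraries are descriptions. Leaving out the equal columns departs from a fit of all 45. Named genes were fgf24, ndr2, the 8 genes most like fgf24 (log2 CPM with prior count 2), the 3 next in the choosing comparison, called Fgf genes and up to 3 abundant uncalled ones per list.

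Replicate numbers come from the titles. Deviations from the group mean over 9060 genes were correlated between same-numbered libraries. In 9 of 30 pairs of groups with 3 pairs every r was over 0.1 (for example 0.43 to 0.602 in 10 pg and control at 6 hpf). There the numbers were taken as pairing the libraries, but the main fit held no block. A replicate block was fitted only as an alternative, over all groups. Alternatives were DESeq2 1.42.0, RLE size factors, library totals, no count filter, a replicate block (also within age), libraries of the ages compared only, the equal columns put back, leaving out 1 library, and the age position as a covariate.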

Additional observations from a re-analysis of the deposited data

Results flagged for a closer look

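The effect of CHX on fgf24 differed between ages by a test of the difference itself. It was lower at 5 hpf than at 4 hpf by -6.07 ± 0.96 log2 units (edgeR quasi-likelihood, adjusted p = 0.000177) and lower at 6 hpf than at 4 hpf by -5.85 ± 0.95 log2 units (adjusted p = 3.36e-05). The comparisons were added after the values were seen. Leaving out 1 library gave -6.97 to -5.66 and -6.87 to -5.44 log2 units, in some fits with 1 library left in a 4 hpf group. The other alternatives, among them the equal columns put back, gave -6.16 to -4.77 and -5.99 to -4.56 log2 units, past the threshold each time.

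The column shared by replicate 3 of 10 pg and of 10 pg with CHX at 4 hpf, used in no comparison, held 108 counts of fgf24, or 5.25 per 1000000 of its 20553891 counts, against at most 0.208 per 1000000 in a control of that age. ndr2 had 51.7 per 1000000 in it. These values are per total count without TMM scaling, so they are not on the scale of the CPM given for the other libraries. At 4 hpf the CHX libraries held 133 fgf24 counts of 18942862 and 79 of 12137856. Those with 10 pg alone held 11 of 14632618 and 21 of 14310386. Which group the column belongs to was not tested.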

How the results depend on the processing

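Over 36 results and their alternatives most values kept their direction and side of the threshold. With the age position as a covariate the 4 hpf differences were 0.06 log2 units with 2 pg (edgeR adjusted p = 0.95), 1.94 with 6 pg (0.075) and 2.67 with 10 pg (0.137). The 10 pg difference from control at 4 hpf passed with DESeq2 (3.58, adjusted p = 0.0126), with all 45 columns (4.59) and with the shared column in 10 pg alone (4.59); so did 10 against 2 pg at 4 hpf with these columns (1.85 and 1.84), while 10 against 6 pg turned to 0.72 with both. CHX against 10 pg at 4 hpf passed with DESeq2 (2.59) and with the shared column in CHX alone (2.47). It did not pass with the shared column in 10 pg alone (1.41, edgeR adjusted p = 0.947) or with all 45 columns (1.29). With that column in 10 pg alone 2 pg at 6 hpf was 2.33 (0.0528) and 6 against 5 hpf with 6 pg 1.72 (0.0503). With library totals only, CHX against control at 6 hpf was 0.42. 10 against 6 pg at 6 hpf, at 0.00, was -0.02 with DESeq2 and with RLE and -0.01 with libraries of that age.

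With the replicate block, 10 against 6 pg at 6 hpf was -0.01, and with the block within age -0.05. The block within age left 2 pg at 6 hpf at 2.35 (adjusted p = 0.0539), 6 against 5 hpf with 6 pg at 2.08 (0.0583) and CHX 5 against 4 hpf at -2.10 (0.081). The blocks changed no other call. Each block gives a replicate number an effect shared by all conditions, so the pairing seen in some pairs of groups was not fitted by itself. The counts of Fgf genes called were 14 at 6 hpf and 0 at 5 hpf with libraries of that age only, and 9 at 5 hpf with DESeq2.

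Leaving out 1 library gave 1.78 to 3.80 for 2 pg and 2.85 to 4.47 for 10 pg at 4 hpf, 2.22 to 2.49 for 2 pg and -1.07 to 0.35 for CHX against control at 6 hpf, -0.15 to 0.30 for 10 against 6 pg at 6 hpf, 1.43 to 1.97 for 6 against 5 hpf with 6 pg, -2.98 to -1.68 for 5 against 4 hpf and 0.39 to 2.30 for 6 against 5 hpf with CHX, -1.26 to 0.35 for the 10 pg effect at 6 minus 4 hpf, -0.80 to 1.11 for the CHX effect at 6 minus 5 hpf, and 4 to 8 Fgf genes called at 5 hpf. The cause was not tested. The 4 hpf controls hold 0 to 5 counts of fgf24, so folds against them are imprecise. Counts cover counting error and spread between libraries only.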

Other observations

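The genes on either side of fgf24 in RefSeq's GRCz12tu annotation, used for gene order only, were lbx2 and pcgf1 on one side and npm1b, tlx2 and kazald2 on the other. None of these 5 passed the test with 2 or 10 pg at 6 hpf, or with 10 pg at 4 or 5 hpf. At 6 hpf with 10 pg the differences from control were 0.84, 0.08, -0.08, 0.80 and -0.71 log2 units in that order, against 3.21 for fgf24. Relative to 10 pg alone, lbx2, pcgf1 and tlx2 rose with CHX at 6 hpf, by 2.28, 1.73 and 3.85 log2 units (edgeR adjusted p of 0.0336, 3.04e-05 and 4.85e-05). kazald2 fell by 3.63 log2 units (edgeR adjusted p = 1.24e-06), as fgf24 did. This comparison called 29% of all genes higher and 27.2% lower, so such calls were common. The level of lbx2 was low, at 0.63 CPM with CHX and 0.124 CPM with 10 pg alone.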
